A study of Homo sapiens with 6 samples.

Results

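The genes described here encode secreted factors and receptors of blood vessel growth: the vascular endothelial growth factors VEGFA, VEGFB and VEGFC, the neuropilins NRP1 and NRP2, and ADM, ANGPTL4, STC1, STC2 and THBS1. They were taken from the table by gene symbol. All 10 were among the 54259 symbols of the count table, and all 10 passed the filter on low counts that left 15277 genes for testing. RNA-Sequence was made of the human breast cancer line MDA-MB-231, with 3 libraries of shBry cells, in which a short hairpin RNA was aimed at the transcription factor brachyury, and 3 libraries of shNC cells, in which the hairpin was a control. The number of clones, the hairpin sequence and the oxygen level of the cultures are not given in the sources used here. Nothing in the labels says that the replicates came from separate cultures, so p-values measure only the spread between these libraries, which may be technical.

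Vascular endothelial growth factors bind receptor tyrosine kinases on endothelial cells, and the neuropilins are co-receptors that bind both these factors and class 3 semaphorins. VEGFA is the main inducer of new blood vessels, and its gene is a classic target of the hypoxia-inducible factors, as are ADM and ANGPTL4. VEGFA and STC2 are also known to respond to the amino acid and ER stress response through the transcription factor ATF4. Tumor cells release these proteins to act on neighbouring vessels, so their transcripts can be high in cells that hold few of the receptors.

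The libraries held between 19319411 and 22985371 counts. Brachyury, listed under its older symbol T, had 0 counts in all 6 libraries, so its transcript was not detected in shNC either. The study describes brachyury as constitutively overexpressed in this line. A lowering of the transcript in shBry therefore cannot be seen in these counts, and its level does not check the group labels. The deposited design text names pericardial RNA, whereas the sample labels name MDA-MB-231. Of 4 genes typical of MDA-MB-231 cells, VIM had 3200 ± 152 CPM (TMM-normalized counts scaled to library size, SD, n = 3) in shBry and 3860 ± 142 in shNC, and the summed level of the 4 lay between 4930 and 5160 CPM in shBry and between 5360 and 5580 in shNC, with CAV1 called lower (log2 fold change -1.11). The luminal markers ESR1 and PGR had at most 1 count in any library, while the 4 luminal markers together reached 18.9 to 19.2 CPM in shBry and 14.8 to 17.2 in shNC, from GATA3 and FOXA1, neither of which was called. Of 10 endothelial markers, 4 were tested. CLDN5 and ERG were at 0 everywhere and PECAM1, CDH5, VWF and EMCN had at most 13 counts in any library. ESAM and ROBO4 were expressed in both groups and called higher in shBry (log2 fold change 0.87 and 0.59), TIE1 was not called (0.52) and KDR was called lower. The summed level of the 10 was 380 to 440 CPM in shBry and 235 to 263 in shNC. Of 8 fibroblast markers, 2 were tested and neither was called, with DCN at 0 in every library and a summed level of 31.8 to 35.4 CPM in shBry and 30.2 to 35.9 in shNC. Of 7 leukocyte markers, 3 were at 0 everywhere, the summed level was at most 1.05 CPM in shBry and 2 in shNC, and CD14 alone was tested and called lower (log2 fold change -1.26). The part of these markers in the results below was not tested.

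Most of the 10 genes were higher in shBry cells. Calls of differential expression required a fold change above 1.5 and, in edgeR's quasi-likelihood test, an adjusted p (Benjamini-Hochberg, over all tested genes) below 0.05. Of the 10 genes, 7 (70%) were called higher, 1 (10%) was called lower and 2 were not called, beside 17.1% of all tested genes called higher and 15.2% called lower. STC2 passed the filter only through its shBry counts, and with 10 counts required in every library 6 of the other 9 were called higher. In 8 of the 10 the 3 shBry values did not overlap the 3 shNC values, as in 59.5% of all tested genes. The median log2 fold change of the 10 was 0.82, against 0.03 over all tested genes. The 10 were chosen with earlier results of these data known, so these comparisons describe the genes and do not test them as a set. STC2 and VEGFA rose most, NRP1, ANGPTL4 and ADM followed, NRP2 and STC1 rose by little more than the fold change limit, and VEGFB fell. In bulk RNA, a change in the number of expressing cells and a change in RNA per cell cannot be told apart.

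**Figure D1:**
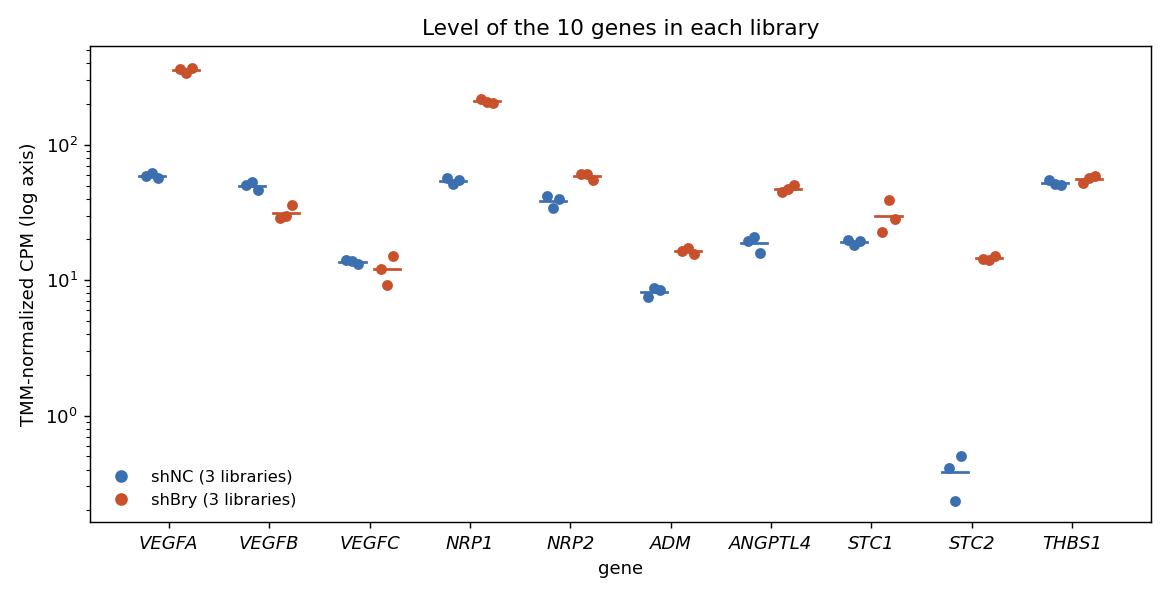
TMM-normalized CPM (log axis) of each of the 10 genes in the 3 shNC libraries (blue) and the 3 shBry libraries (orange), with a bar at each group's mean. VEGFA lay between 57 and 61.7 CPM in shNC and between 339 and 372 in shBry, STC2 moved from under 1 CPM to 14.1 to 15.1, and the groups overlapped for VEGFC and THBS1.

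**Figure D2:**
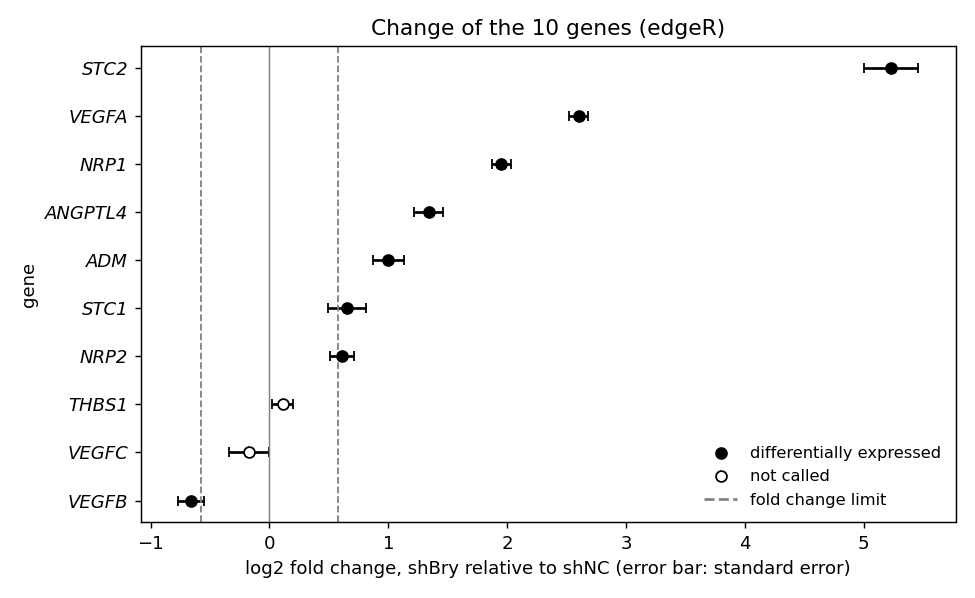
The log2 fold change of each of the 10 genes in shBry relative to shNC, with its standard error, from the edgeR fit. Filled points were differentially expressed, open points were not called, and the dashed lines mark the fold change limit of 1.5, which STC1, NRP2 and VEGFB passed by little.

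Gene locations are given for GRCh38. The gene VEGFA covers chr6:43770184-43786487 (plus strand), and GENCODE 29 lists 32 transcripts of it. It had 361, 339 and 372 CPM in shBry replicates 1, 2 and 3, and 58.6, 61.7 and 57 CPM in shNC replicates 1, 2 and 3. Every shBry library was more than 5 times the highest shNC library, and the spread within each group was small beside that gap. The mean was 357 ± 16.7 CPM in shBry and 59.1 ± 2.41 in shNC (SD, n = 3), a log2 change of 2.60 (SE 0.08, edgeR adjusted p = 1.4e-11), which is a 6.04-fold rise. Another annotated gene overlaps 1.3% of its exon bases. The log2 fold change of VEGFA was at least as high as that of 99% of tested genes.

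VEGFB, on chromosome 11 from 64234538 to 64238793 on the plus strand, encodes a factor that binds the receptor FLT1 and is a weaker inducer of vessels. It moved the other way. Its level was 28.8, 29.8 and 35.9 CPM in the shBry replicates and 50.6, 52.9 and 46.1 CPM in the shNC replicates, so that all 3 shBry libraries were below all 3 shNC libraries. VEGFB fell from 49.9 ± 3.47 to 31.5 ± 3.82 CPM, a log2 change of -0.66 (SE 0.11, edgeR adjusted p = 0.00015).
VEGFC, on chromosome 4 from 176683538 to 176792727 on the minus strand, encodes the ligand of FLT4 and drives the growth of lymphatic vessels. It had 12.2, 9.19 and 15.2 CPM in shBry and 14.1, 13.8 and 13.2 CPM in shNC. The shBry libraries lay on both sides of the shNC libraries, and the spread in shBry (SD 2.99) exceeded that in shNC (SD 0.46). VEGFC was not called, with a log2 change of -0.17 (SE 0.17, edgeR adjusted p = 0.41). Of 6 tested genes for the proteolytic processing of VEGFC, such as FURIN, 0 were called by edgeR, beside 32.4% of all tested genes. With the same fold change limit, 0 were called at the unadjusted p, by DESeq2 or by limma-voom. Without any fold change limit, 2 of the 6 were called higher, beside 4279 of all 15277 tested genes. These were PCSK7 (log2 fold change 0.52, adjusted p = 0.00028, edgeR) and CCBE1 (0.34, adjusted p = 0.021, edgeR). The median log2 fold change of the 6 was 0.24, and without shBry replicate 2 edgeR called 1 of the 6 lower.

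The ratio of 2 counts within a library does not depend on how libraries are scaled. VEGFA had 12.5, 11.4 and 10.4 counts for each VEGFB count in the shBry replicates, and 1.16, 1.17 and 1.24 in the shNC replicates. Both genes therefore gave similar numbers of counts in shNC, and VEGFA far more in shBry. The log2 ratio was 3.26 higher in shBry (exact two-sided permutation test, p = 0.1). For VEGFA to VEGFC the count ratio was 30.3 ± 6.22 in shBry and 4.32 ± 0.153 in shNC, a log2 difference of 2.79 (exact permutation test, p = 0.1). With 3 libraries against 3, 0.1 is the smallest p this test allows, and the Benjamini-Hochberg adjusted value over the 4 ratios examined was 0.1 for each.

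**Figure D3:**
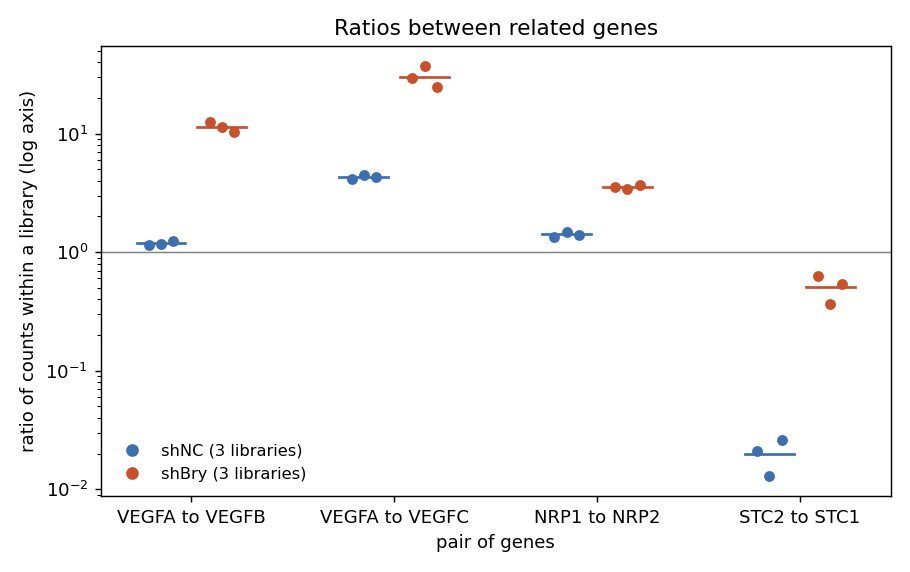
Ratio of the counts of 2 related genes within each library (log axis), for the 3 shNC libraries (blue) and the 3 shBry libraries (orange), with a bar at each group's mean and a grey line at equal counts. The groups were apart for all 4 pairs, and the ratio of VEGFA to VEGFB moved from 1.19 ± 0.0429 to 11.4 ± 1.08.

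NRP1, on chromosome 10 from 33177492 to 33336262 on the minus strand, encodes the neuropilin that binds VEGFA and semaphorin 3A. It had 218, 208 and 205 CPM in the shBry replicates and 56.5, 51.3 and 55.3 CPM in the shNC replicates. The groups were far apart, with each shBry library above 200 CPM. NRP1 rose from 54.4 ± 2.72 to 210 ± 6.39 CPM, a log2 change of 1.95 (SE 0.08, edgeR adjusted p = 2.3e-10). Other annotated genes overlap 4.87% of the exon bases of NRP1 and 1.06% of those of NRP2.
NRP2, on chromosome 2 from 205681990 to 205798133 on the plus strand, encodes the neuropilin that binds VEGFC and semaphorin 3F. Its 61.3, 60.6 and 55.3 CPM in shBry stood against 42.1, 34.4 and 39.7 CPM in shNC. The groups did not overlap, but the gap was small. NRP2 rose by a log2 change of 0.61 (SE 0.10, edgeR adjusted p = 0.00016). This lay just past the fold change limit of 0.58 on the log2 scale, and NRP2 was under it without shBry replicate 1 (0.58), shBry replicate 2 (0.57) or shNC replicate 2 (0.51). The count ratio of NRP1 to NRP2 was 3.57 ± 0.139 in shBry and 1.41 ± 0.0758 in shNC, a log2 difference of 1.34 (exact permutation test, p = 0.1).

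The receptor tyrosine kinases of the vascular endothelial growth factors had few counts. FLT1 had at most 3 counts in any library, where 3 counts correspond to 0.131 to 0.155 CPM depending on the library. KDR, the main signalling receptor for VEGFA, had 16, 33 and 45 counts in shBry and 78, 46 and 59 in shNC, and was called lower at 1.42 ± 0.567 against 2.9 ± 0.701 CPM (log2 fold change -1.02, adjusted p = 0.012, edgeR). FLT4, the receptor for VEGFC, had 11, 16 and 13 counts in shBry and 0, 3 and 2 in shNC. FLT4 passed the filter only through its shBry counts and could not be tested with 10 counts required in every library. Its call (adjusted p = 0.002, edgeR) therefore rests on few counts. The shBry counts were 7.76 times the shNC counts after scaling, with a 95% exact binomial interval of 3.06 to 25.2 that covers counting error only.
Of 27 receptors and co-receptors examined beside the neuropilins, 17 were tested, 5 (29.4%) were called higher and 5 (29.4%) lower, beside 17.1% and 15.2% of all tested genes, with a median log2 fold change of 0.05. With 10 counts required in every library, 4 were called higher and 4 lower. Those called higher were FLT4, NOTCH1 (0.87), the ephrin receptor gene EPHA2 (0.80) and the plexin genes PLXNA3 (0.78) and PLXNA1 (0.68). Plexins of class A are the signalling partners of the neuropilins for semaphorins. Those called lower were the endothelin receptor gene EDNRB (-1.35, with at most 42 counts in any library), KDR, RAMP1, ENG (-0.76) and the semaphorin 3E receptor gene PLXND1 (-0.65). Of 7 class 3 semaphorins, the other ligands of the neuropilins, 6 were tested. SEMA3G alone (16.7% of the 6) was called, beside 32.4% of all tested genes. Its log2 fold change was -1.22, and the median of the list was -0.06.

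ADM, on chromosome 11 from 10304680 to 10307397 on the plus strand, encodes adrenomedullin, a peptide that widens vessels and supports endothelial growth. Its level was 16.4, 17.3 and 15.5 CPM in the shBry replicates and 7.51, 8.75 and 8.41 CPM in the shNC replicates. All shBry libraries were above all shNC libraries. ADM rose from 8.22 ± 0.637 to 16.4 ± 0.905 CPM, a log2 change of 1.0 (SE 0.13, edgeR adjusted p = 2.3e-05). ADM2, which encodes a related peptide, rose from 3.91 ± 0.545 to 17.9 ± 1.73 CPM (log2 fold change 2.19, adjusted p = 5.5e-08, edgeR).
The adrenomedullin receptor consists of the protein of CALCRL with that of RAMP2 or RAMP3, and with RAMP1 it binds a related peptide instead. RAMP2 and RAMP3 were listed at 0 in all 6 libraries and CALCRL had at most 10 counts in any library. RAMP1 was expressed and fell from 26.5 ± 3.37 to 14.9 ± 1.58 CPM (log2 fold change -0.83, adjusted p = 0.00011, edgeR).

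ANGPTL4, on chromosome 19 from 8363289 to 8374373 on the plus strand, encodes a secreted inhibitor of lipoprotein lipase that also acts on vessel permeability. It had 44.5, 47.3 and 50.6 CPM in shBry and 19.4, 20.9 and 15.8 CPM in shNC. The lowest shBry library was more than 2 times the highest shNC library. ANGPTL4 rose from 18.7 ± 2.63 to 47.5 ± 3.06 CPM, a log2 change of 1.34 (SE 0.12, edgeR adjusted p = 4.5e-07). Of 6 genes around lipoprotein lipase, 3 were tested and 1 (33.3%) was called, beside 32.4% of all tested genes. LIPG, which encodes endothelial lipase, was the gene called, and fell from 29.8 ± 2.12 to 17.3 ± 0.367 CPM (log2 fold change -0.78, adjusted p = 4e-05, edgeR), and the median of the 3 was 0.02.

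STC2, on chromosome 5 from 173314713 to 173329503 on the minus strand, encodes stanniocalcin 2, a secreted glycoprotein that inhibits the pappalysin proteases. It changed more than any other of the 10 genes. STC2 had 268, 335 and 341 counts in the shBry replicates and 9, 5 and 10 counts in the shNC replicates. In CPM these are 14.4, 14.1 and 15.1 against 0.412, 0.236 and 0.501. STC2 was near the floor of 3 counts in shNC, and each shBry library had more than 20 times the counts of any shNC library. The log2 change was 5.23 (SE 0.23, edgeR adjusted p = 3.7e-10), at least as high as that of 99.8% of tested genes. The ratio of scaled counts was 38.2, with a 95% exact binomial interval of 25.5 to 59.9 that covers counting error only.
STC1, its paralog on chromosome 8 from 23841915 to 23854807 on the minus strand, had 22.7, 39 and 28.2 CPM in shBry and 19.7, 18.3 and 19.5 CPM in shNC. The groups did not overlap, but the shBry libraries were widely spread and shBry replicate 1 lay close to the shNC libraries. STC1 rose from 19.2 ± 0.747 to 30 ± 8.28 CPM, a log2 change of 0.65 (SE 0.16, edgeR adjusted p = 0.004). Its call rested on shBry replicate 2, without which the log2 fold change was 0.40, under the fold change limit, with an adjusted p of 0.015 in the same edgeR test. The count ratio of STC2 to STC1 was 0.511 ± 0.138 in shBry and 0.0198 ± 0.00648 in shNC, a log2 difference of 4.71 (exact permutation test, p = 0.1).
Among 7 genes of pappalysins and the insulin-like growth factor system on which stanniocalcins act, 4 were tested, with a median log2 fold change of 0.20. Of the 4, 1 (25%) was called higher and 1 (25%) lower, beside 17.1% and 15.2% of all tested genes. PAPPA (log2 fold change 0.81, adjusted p = 0.15, edgeR, at most 19 counts in any library) and IGFBP4 (-0.40, adjusted p = 0.0014, edgeR) were not called. PAPPA2, which encodes a pappalysin, rose from 5.71 ± 0.676 to 44.5 ± 5.1 CPM (log2 fold change 2.96, adjusted p = 6.5e-10, edgeR). IGF1R, the receptor gene, fell from 67.2 ± 7.49 to 38.1 ± 5 CPM (log2 fold change -0.82, adjusted p = 3.6e-05, edgeR).

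THBS1, on chromosome 15 from 39581079 to 39599466 on the plus strand, encodes thrombospondin 1, a matrix protein that restrains vessel growth. It had 52.3, 57 and 59.2 CPM in shBry and 55.2, 51.4 and 50.1 CPM in shNC. The groups overlapped. THBS1 was not called, with a log2 change of 0.11 (SE 0.09, edgeR adjusted p = 0.34), and other annotated genes overlap 7.58% of its exon bases. Of its receptor genes, CD36 had at most 2 counts in any library, and CD47 had 26.7 ± 7.21 CPM in shBry and 30.3 ± 5.62 in shNC, without a call (log2 fold change -0.18, adjusted p = 0.42, edgeR).
Of 13 other inhibitors of angiogenesis and thrombospondins, 11 were tested, with a median log2 fold change of -0.41. Of the 11, 3 (27.3%) were called higher and 3 (27.3%) lower, beside 17.1% and 15.2% of all tested genes. TNFSF15, which encodes a cytokine that inhibits endothelial growth, rose from 8.22 ± 2.08 to 64.4 ± 5.41 CPM (log2 fold change 2.97, adjusted p = 1.8e-09, edgeR). The protease gene ADAMTS1 (1.13) and ISM1 (0.98) were also called higher. ISM1 had 23, 55 and 49 counts in the shBry replicates and 21, 17 and 23 in the shNC replicates, so shBry replicate 1 lay close to the shNC libraries. With single libraries left out, 2 to 3 genes of this list were called higher. VASH2 (-2.51), TIMP3 (-1.72) and VASH1 (-1.57) were called lower. VASH2 had 5, 11 and 12 counts in the shBry replicates and 50, 45 and 60 in the shNC replicates. The size of its fall therefore rests on few shBry counts, and VASH2 could not be tested with 10 counts required in every library. TIMP3 encodes a metalloproteinase inhibitor that blocks binding of VEGFA to KDR, and VASH1 a vasohibin that inhibits angiogenesis. VASH2 encodes a vasohibin that is known to promote vessel growth, although it stood in this list.

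Among 24 other angiogenic ligands, 19 were tested, 7 (36.8%) were called higher and 4 (21.1%) lower, with a median log2 fold change of 0.38. Among those that rose were 2 genes of Notch ligands. DLL4 had 100, 91 and 84 counts in shBry and 7, 7 and 12 in shNC (log2 fold change 3.36, adjusted p = 8.1e-07, edgeR) and passed the filter only through its shBry counts, and JAG1 rose from 10.5 ± 0.521 to 37 ± 0.164 CPM (log2 fold change 1.82, adjusted p = 1.1e-08, edgeR). The ligands called lower were APLN (-1.75), FGF1 (-1.22), PTN (-1.0) and PDGFC (-0.80). Over all 10 lists of pathway genes, 117 of 143 genes were tested, with a median log2 fold change of 0.09. Of these, 36 (30.8%) were called higher and 27 (23.1%) lower, beside 17.1% and 15.2% of all tested genes. The list of ATF4 and its targets gave 16 of the 36, and the hypoxia-induced genes gave 10 of the 27. The 36 include DLL4, FLT4 and NUPR1, which passed the filter only through their shBry counts.

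Levels of different genes were compared as CPM per kilobase of the longest protein-coding transcript in GENCODE 29. In shNC, VEGFB was highest at 36.2 ± 2.51, followed by VEGFA at 16.7 ± 0.682, ANGPTL4 at 9.95 ± 1.4, NRP1 at 9.25 ± 0.462, THBS1 at 6.71 ± 0.34, VEGFC at 6.64 ± 0.223, NRP2 at 5.81 ± 0.591, STC1 at 4.94 ± 0.192, ADM at 4.35 ± 0.337 and STC2 at 0.0715 ± 0.0252 (SD, n = 3). The libraries of ANGPTL4 and NRP1 overlapped, as did those of THBS1 and VEGFC. In shBry, VEGFA was highest at 101 ± 4.72, with NRP1 at 35.7 ± 1.09, ANGPTL4 at 25.3 ± 1.63 and VEGFB at 22.8 ± 2.77, of which the last pair overlapped. NRP2, ADM, STC1, THBS1 and VEGFC followed between 8.87 ± 0.492 and 5.91 ± 1.45, each overlapping the next, and STC2 was lowest at 2.73 ± 0.0955. The order in both groups depends on the length used. All annotated exons of VEGFA span 14431 bases, against 3535 in its longest coding transcript. Per kilobase of all exons, VEGFA had 4.1 ± 0.167 in shNC and took rank 7 of 10. In shBry it was still highest at 24.7 ± 1.16, but its lowest library (23.5) was close to the highest of VEGFB (23.2). VEGFB then took rank 2 at 20.4 ± 2.47, before ANGPTL4 at 19.1 ± 1.23 and NRP1 at 18.2 ± 0.555, each overlapping the next.

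Several of the 10 genes are known targets of hypoxia-inducible factors or of ATF4, so the genes of both responses were set beside them. HIF1A, which encodes the oxygen-regulated subunit HIF-1 alpha, rose from 113 ± 17.5 to 237 ± 26.1 CPM (log2 fold change 1.07, adjusted p = 2.2e-06, edgeR). EPAS1, which encodes HIF-2 alpha, rose from 14.4 ± 1.59 to 49.8 ± 1.46 CPM (log2 fold change 1.79, adjusted p = 1.3e-08, edgeR). EGLN1 (-0.77) and EGLN3 (-0.68), which encode prolyl hydroxylases that mark HIF proteins for decay, were called lower, and the other 5 of 9 tested genes of HIF control were not called. The calls were thus 2 (22.2%) higher and 2 (22.2%) lower, beside 17.1% and 15.2% of all tested genes. The median of these 9 genes was 0.07, against 0.03 over all tested genes.
Of 25 tested genes that hypoxia is known to induce, 10 (40%) were called lower and 2 (8%) higher, beside 15.2% and 17.1% of all tested genes, with a median log2 fold change of -0.52. The 25 leave out VEGFA, ADM and ANGPTL4, which are among the 10 genes and were called higher, so the shares do not cover all hypoxia targets. PPFIA4 fell from 32.3 ± 2.97 to 6.12 ± 1.15 CPM (log2 fold change -2.40), BNIP3 from 379 ± 19.8 to 89.8 ± 1.3 CPM (-2.08), and CA9, a common marker of hypoxic tumor cells, from 86.8 ± 16.6 to 27.2 ± 3.12 CPM (-1.67). The genes called higher were DDIT4 (1.59), which is also a stress response gene, and MXI1 (0.72).
Of 17 tested genes of ATF4 and its targets, 16 (94.1%) were called higher and 0 lower, beside 17.1% and 15.2% of all tested genes. The median log2 fold change of the 17 was 2.22. The exception was ATF5 (-0.33), which was not called. NUPR1 passed the filter only through its shBry counts, and with 10 counts required in every library 15 were called higher. ATF4 itself rose from 431 ± 10.4 to 663 ± 74 CPM (log2 fold change 0.62, adjusted p = 4.2e-05, edgeR). CHAC1 had a log2 fold change of 3.69, NUPR1 of 3.44 with at most 9 counts in any shNC library, and CTH of 3.35. The part of either response in the change of the 10 genes was not tested.

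**Figure D4:**
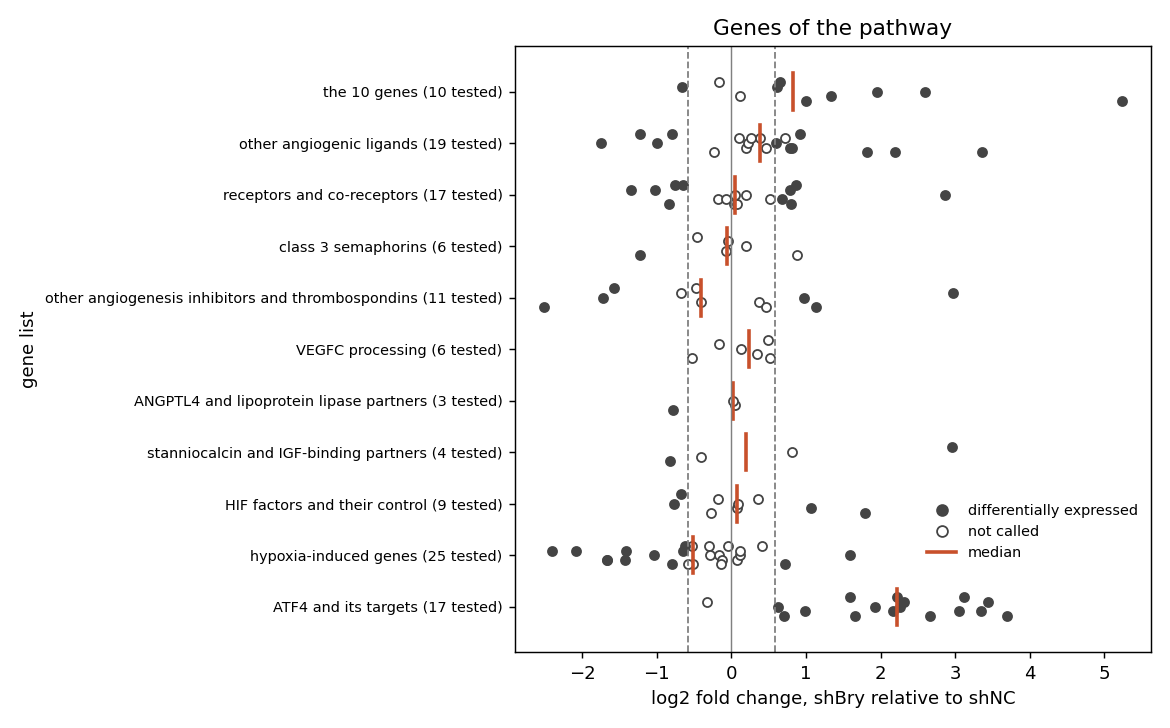
The log2 fold change in shBry relative to shNC of every tested gene in the 10 genes and in 10 lists of related genes, filled where differentially expressed and open where not, with an orange bar at each list's median and dashed lines at the fold change limit of 1.5. The ATF4 list lay to the right with a median of 2.22, the hypoxia-induced genes lay mostly to the left with a median of -0.52, and the 10 genes had a median of 0.82.

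The sequence before the RefSeq start site of the genes was searched for short letter patterns known from the factors above. RefSeq sequences (GRCh38.p14) matched 7 of the 10 genes, and the 250 bases before that start were searched. The RefSeq start differs from the outermost GENCODE start for some genes, so the windows of STC2, ANGPTL4, ADM and NRP2 lie within the GENCODE span of the gene, and that of VEGFB lies partly within it. VEGFA, NRP1 and STC1 were not among the 7. The core ACGTG or GCGTG, on either strand, was present in 6 of the 7, all but NRP2, and in 43.2% of 35116 promoters of that length. ACGTG alone was in 18.5% and GCGTG alone in 32.2% of them. The letters G and C made up 63.6% (STC2) to 82.8% (VEGFB) of the 7 windows, and the 35116 promoters were not matched for this. The shares therefore do not show an excess of the core in the 7. The pattern TGATGNAAN of ATF4 with its partners (either strand) was in none of the 7 and in 3.13% of all promoters. The core of the T-box factors, to which brachyury belongs, TCACACCT (either strand), was in none of the 7 and in 0.786% of all promoters. A match describes letters in this window and is not evidence of binding. The 4 sequences below are those of 3 genes that rose and of VEGFB, which fell, each from 5′ to 3′ on the strand of its gene, with the matches in capitals.
STC2, chr5:173328415-173328664 on the minus strand, with 3 matches to GCGTG, the first 2 in reverse and sharing a letter: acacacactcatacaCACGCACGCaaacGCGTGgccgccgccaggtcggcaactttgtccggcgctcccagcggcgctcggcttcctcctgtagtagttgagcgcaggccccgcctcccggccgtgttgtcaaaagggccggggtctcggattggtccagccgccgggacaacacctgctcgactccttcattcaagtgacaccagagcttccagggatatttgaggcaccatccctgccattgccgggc
ANGPTL4, chr19:8363905-8364154 on the plus strand, with 1 match to ACGTG, in reverse: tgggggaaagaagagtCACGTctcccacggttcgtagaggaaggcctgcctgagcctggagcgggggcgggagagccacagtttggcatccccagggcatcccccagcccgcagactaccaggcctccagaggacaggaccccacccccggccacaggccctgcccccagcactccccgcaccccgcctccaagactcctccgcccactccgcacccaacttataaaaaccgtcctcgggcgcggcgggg
ADM, chr11:10304823-10305072 on the plus strand, with 1 match to GCGTG: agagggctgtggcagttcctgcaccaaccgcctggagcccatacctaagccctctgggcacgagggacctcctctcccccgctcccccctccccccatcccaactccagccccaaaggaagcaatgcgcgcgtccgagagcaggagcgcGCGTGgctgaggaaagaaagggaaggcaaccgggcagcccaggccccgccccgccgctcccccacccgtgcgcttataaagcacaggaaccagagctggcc
VEGFB, chr11:64234334-64234583 on the plus strand, with 1 match to GCGTG: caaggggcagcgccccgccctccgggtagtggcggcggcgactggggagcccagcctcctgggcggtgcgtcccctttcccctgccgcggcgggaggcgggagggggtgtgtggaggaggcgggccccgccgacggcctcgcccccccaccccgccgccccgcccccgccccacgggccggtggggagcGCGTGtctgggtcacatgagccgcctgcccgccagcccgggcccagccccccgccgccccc
STC2, with a log2 fold change of 5.23, and VEGFB, with -0.66, thus both held the GCGTG core, as did THBS1 and VEGFC, which were not called.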

How the data were processed

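RNA of MDA-MB-231 shBry and shNC cells was sequenced in 3 libraries each. The authors deposited raw counts, the number of reads on each gene symbol in each library, without normalization. The submitters' processing notes name HISAT2 2.0.4, HTSeq and GRCh38. The annotation and the strand setting are not given in the sources used here, so reads of overlapping genes could be shared.

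Genes were filtered with filterByExpr of edgeR 4.0.16 (minimum count 10) in R 4.3.3, libraries were scaled by TMM, and groups were compared by the quasi-likelihood test of edgeR with Benjamini-Hochberg adjustment over all tested genes. The fold change limit (1.5) is that of the study, and the limit of 0.05 was applied here to the adjusted p. CPM are TMM-normalized. The standard error is the log2 fold change divided by the square root of F. Ratios within a library were compared by exact permutation over libraries. The fit was also run on simulated counts in which few genes were changed. That run does not test the setting of these libraries, in which 32.4% of all tested genes were called. Counts per library limit precision, with a count of 0 allowing 3 counts.

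The genes and the lists were chosen with earlier results of these data known, and the lists were written from general knowledge. Genes named were the 10, the receptors FLT1, KDR, FLT4, CALCRL, RAMP1, RAMP2, RAMP3, CD36 and CD47, the factors HIF1A, EPAS1 and ATF4, the 3 genes nearest to VEGFA and, from each of 10 lists, up to 3 called genes of at least 1 CPM with the largest absolute log2 fold change. Other list and marker genes were named after their values were seen. Locations and lengths came from GENCODE 29, matched by symbol. Promoters came from RefSeq.

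The alternatives were no TMM, DESeq2 1.42.0, limma-voom (limma 3.58.1), other filters, unadjusted p, other fold change limits, the replicate number as a block and each library left out.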

Additional observations from a re-analysis of the deposited data

How the results depend on the processing

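The 10 genes were compared under all alternatives, and none changed direction. With a fold change limit of 2, 4 genes were called higher and 0 lower, in place of 7 and 1. Leaving out single libraries gave 5 to 7 calls higher and 1 lower, with 5 higher without shBry replicate 2. NRP2 was under the fold change limit with no expression filter (0.58) and without shBry replicate 1, shBry replicate 2 or shNC replicate 2, and STC1 without shBry replicate 2. STC2 could not be tested when 10 counts were required in every library. At the fold change limit of 1.5, the calls of the 10 genes were otherwise as reported. Without any fold change limit, 4279 genes were called higher and 3860 lower over all tested genes, and with a limit of 2, 1255 and 1042. The deviations of libraries with the same replicate number correlated at 0.25, -0.13 and -0.05, so the numbers were not taken to pair the libraries, and for 1 of the 3 numbers the libraries correlated best with their own number. With the replicate number as a block, 7 of the 10 genes were called higher and 1 lower, the log2 fold change was 2.59 for VEGFA and 0.61 for STC1, and permuting the signs of the paired differences of the ratios gave an exact p of 0.25, the smallest it allows. With each library left out, the log2 difference of the ratio lay between 3.2 and 3.33 for VEGFA to VEGFB, 2.64 and 2.93 for VEGFA to VEGFC, 1.31 and 1.38 for NRP1 to NRP2, and 4.43 and 4.94 for STC2 to STC1. Over the same omissions the log2 fold change of VEGFC lay between -0.36 and -0.01 (adjusted p from 0.098 to 0.96, edgeR), and that of THBS1 between 0.05 and 0.15. Depth limits FLT1, FLT4, CALCRL, CD36 and the shNC level of STC2.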

Other observations

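The genes whose pattern over the 6 libraries was most like that of VEGFA were SAT1, IL11 and ASS1, out of 9412 candidates whose mean reached 10 CPM. Likeness was measured as the root mean square distance between log2 CPM after subtraction of each gene's own mean. It was 0.047 for SAT1, 0.054 for IL11 and 0.081 for ASS1, and over 6 libraries in 2 groups it mostly reflects a like difference between the groups. SAT1, which encodes an enzyme of polyamine breakdown, had 28.8 ± 0.503 CPM in shNC and 179 ± 13.8 in shBry (SD, n = 3), a log2 fold change of 2.64. IL11, which encodes a secreted cytokine of the interleukin 6 family, had 5.73 ± 0.368 and 39 ± 1.65 CPM, a log2 fold change of 2.77. ASS1, which encodes an enzyme of arginine synthesis, had 39 ± 2.8 and 234 ± 20.4 CPM, a log2 fold change of 2.59. VEGFA itself had 2.60. The distances are a description, and no test was made.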
